A study of Mus musculus with 2 samples.

Results

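RNA Pol II contacts were examined at 65 genes for translation initiation and elongation factors in mouse embryonic stem cells (mESCs). The genes were taken by name from the GENCODE vM1 annotation of mm9, as the protein-coding genes whose symbol starts with Eif and a digit, or with Eef1 or Eef2, leaving out Eif4a1. They are 65 of 22238 protein-coding symbols, with 19 in the Eif2 group, 13 in the Eif3 group, 15 in the Eif4 group, 8 in the Eef group, 5 in the Eif1 group and 5 in the Eif5 and Eif6 group. Symbols set the groups, so the Eif2 group also holds 4 Argonaute genes (Eif2c1 to Eif2c4) and 4 kinases (Eif2ak1 to Eif2ak4), and the Eif4 group holds the 4E-binding proteins. The measurement was RNA Pol II ChIA-PET, which ligates the ends of RNA Pol II-bound DNA fragments that lie close together. Each paired-end tag (PET) that joins 2 peaks counts as 1 contact, and the peaks of a pair are called anchors here. Ronin knockout cells carried CreERT2 and floxed Ronin (Thap11) alleles and received tamoxifen for 4 days. Control cells carried the same CreERT2 and floxed alleles and received ethanol for 4 days, so tamoxifen and the loss of Ronin cannot be told apart. Both were grown in serum with LIF on gelatine. The authors merged 2 experiments into 1 library per condition, so every difference below is between 2 libraries and has no replicate check.

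Translation starts when eIF2 brings the initiator tRNA to the small ribosomal subunit, with eIF1, eIF1A, eIF3 and eIF5, while the eIF4 proteins bind the mRNA cap, unwind the leader and recruit the complex. eIF5B then joins the large subunit, and the elongation factors eEF1 and eEF2 deliver aminoacyl-tRNAs and move the ribosome along the mRNA. Most of these genes are active in nearly all cells, and Ronin is a zinc-finger protein of the THAP family that binds promoters of many such housekeeping genes in mESCs.

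Ronin binds a sequence known as the Ronin-binding motif (RBM), and 1 of the 65 factor genes, Eif3c, had a full copy in a promoter window. The window ran from 250 bases before to 50 bases after each annotated start site, and 242 of 22232 genes with such a window (1.09%) held the full motif on either strand. Eif3c encodes a core subunit of eIF3. Its copy is printed because it is the only full match among the factor genes, at chr7:133709939-133710013 of mm9 on the minus strand, with the motif in capitals. Its first base is at -103, with the start site at 0.
Eif3c: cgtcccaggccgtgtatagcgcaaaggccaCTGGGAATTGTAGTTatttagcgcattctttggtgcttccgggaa
The inner letters GANNTGTAG, which lie within the full motif, were present on either strand in windows of 6 factor genes (9.23%, exact 95% interval 3.46% to 19%) and of 1536 genes in all (6.91%). Beside Eif3c these were Eif2b4 and Eif2b5 of the eIF2 exchange factor, Eif2s2 (the beta subunit of eIF2), Eif3k of eIF3 and the eIF4 scaffold gene Eif4g1. Their matches are shown in the direction of the gene, with the 9 letters in capitals, from chr2:154718688-154718736 for Eif2s2, chr5:31495579-31495627 for Eif2b4, chr16:20498645-20498693 for Eif2b5, chr7:29766807-29766855 for Eif3k and chr16:20674192-20674240 for Eif4g1. In Eif2s2, Eif3k and Eif4g1 the letters are on the opposite strand and read in reverse complement.
Eif2s2: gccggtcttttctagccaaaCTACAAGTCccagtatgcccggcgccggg
Eif2b4: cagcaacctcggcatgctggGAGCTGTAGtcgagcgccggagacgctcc
Eif2b5: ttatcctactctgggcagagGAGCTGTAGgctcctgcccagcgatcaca
Eif3k: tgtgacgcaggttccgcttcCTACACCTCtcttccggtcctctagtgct
Eif4g1: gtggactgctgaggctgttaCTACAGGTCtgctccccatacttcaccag
Eif3c had 26 PETs in Ronin knockout cells and 47 PETs in control cells. The sequence match is a description of the window and not a binding site measured here. Ronin binding, which the paper mapped by ChIA-PET, was not examined here, so a window without a full match does not show absence of binding.

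Across both libraries, Ronin knockout cells had 44328 pairs of peaks with 65276 PETs, and control cells had 128267 pairs with 156097 PETs. The knockout values are 34.6% of control for pairs and 41.8% for PETs. Pairs in which both anchors hold the same run of 100 bp or longer held 17.1% of PETs in Ronin knockout cells and 11.1% in control cells. Thap11 itself had 46 PETs in Ronin knockout cells and 109 in control cells, which are contacts and do not measure the Ronin protein. Of 10 pluripotency markers, 9 were in the annotation and all 9 had PETs (242 in Ronin knockout cells and 764 in control cells). None of 6 fibroblast markers had any PET, and 6 primitive endoderm markers had 8 PETs in Ronin knockout cells and 10 in control cells. Intervals are exact 95% intervals and cover counting error only.

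The factor genes had far fewer contacts in Ronin knockout cells, and the number of their pairs was as low as that of the library as a whole. Counting each pair once, Ronin knockout cells had 1294 pairs with 1338 PETs at factor genes, against 3859 pairs with 3983 PETs in control cells. In pairs this was 33.5% of control (31.5% to 35.7%), and in PETs 33.6% (31.6% to 35.7%). For pairs outside the factor genes the knockout share was 34.6% (34.2% to 35%), and the ratio of the factor genes' ratio to that of the other pairs was 0.969 (0.909 to 1.03), an interval that includes 1. In PETs the same ratio of ratios was 0.799 (0.750 to 0.851), and it was 0.853 (0.80 to 0.909) without the pairs that share a stretch. Relative to the other pairs, the factor genes were thus lower in PETs, while in pairs the difference was within counting error. The PET totals include genes with far more PETs than any factor gene. The most at 1 gene was 7485 in Ronin knockout cells and 9614 in control cells, and at a factor gene 90 and 293. The binomial test below uses the knockout share of these totals. How far such genes set the PET ratio was not tested. Among intrachromosomal pairs factor genes had 119 PETs in Ronin knockout cells and 308 in control cells, which is 38.6% (31% to 47.9%). Other intrachromosomal pairs were at 49.4% in PETs, and the ratio of ratios was 0.783 (0.627 to 0.971). Interchromosomal pairs of factor genes had 1219 PETs in Ronin knockout cells and 3675 in control cells, which is 33.2% (31.1% to 35.4%). Other interchromosomal pairs were at 40.6%, with a ratio of ratios of 0.816 (0.764 to 0.872).

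**Figure D1:**
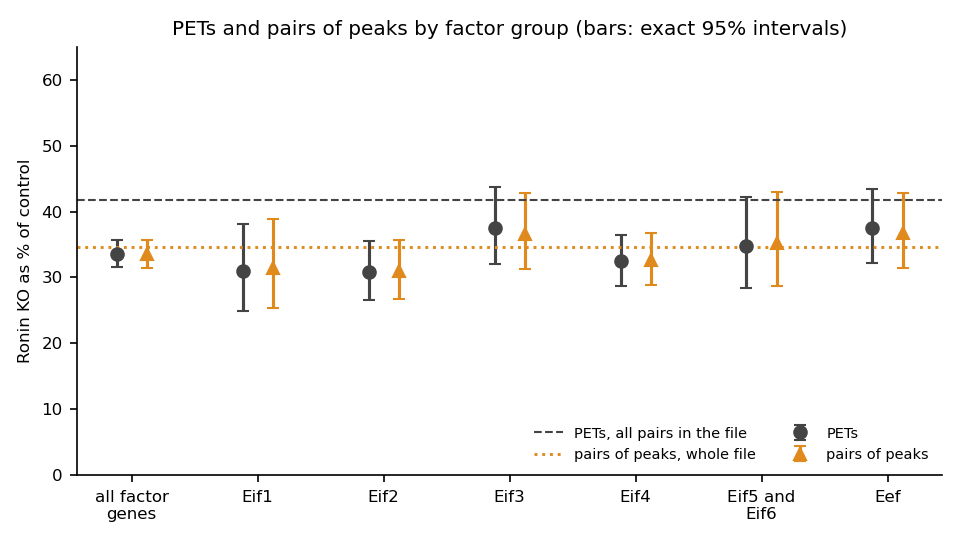
Ronin knockout as percent of control (vertical axis) for all factor genes and each group, with circles for PETs, triangles for pairs of peaks and bars for exact 95% intervals. The dashed and dotted lines are the values of the whole libraries, 41.8% for PETs and 34.6% for pairs, and the triangles of every group have intervals that include the dotted line.

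Of the 65 genes, 61 had PETs, and 4 had none in either library: Eef1a2, Eif2c4, Eif2s3y and Eif4e3. Unscaled counts were lower in Ronin knockout cells for 59 of the 61 genes and equal for Eif2ak3 and Eef2k, at 3 PETs in each library. Among genes with at least 10 PETs in both libraries together, 56 of 56 factor genes had fewer PETs in Ronin knockout cells, beside 94.8% of the 8929 protein-coding genes tested. After scaling to equal totals of linking PETs, 34 of these 56 genes (60.7%) were lower in Ronin knockout cells, beside 61.9% of all genes. The median scaled log2 ratio, with 1 added to each count, was -0.34 for the factor genes and -0.20 for all genes. Other scalings moved both groups of genes in the same direction. Without pairs that share a run, 33 factor genes (58.9%) and 56.7% of all genes were lower. With the numbers of pairs as totals, 30 factor genes (53.6%) and 45.3% of all genes were lower, with medians of -0.07 and 0.07. With library totals of PETs over 5 kb, 56 of 56 factor genes and 92% of all genes were lower, with medians of -1.22 and -1.08.

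**Figure D2:**
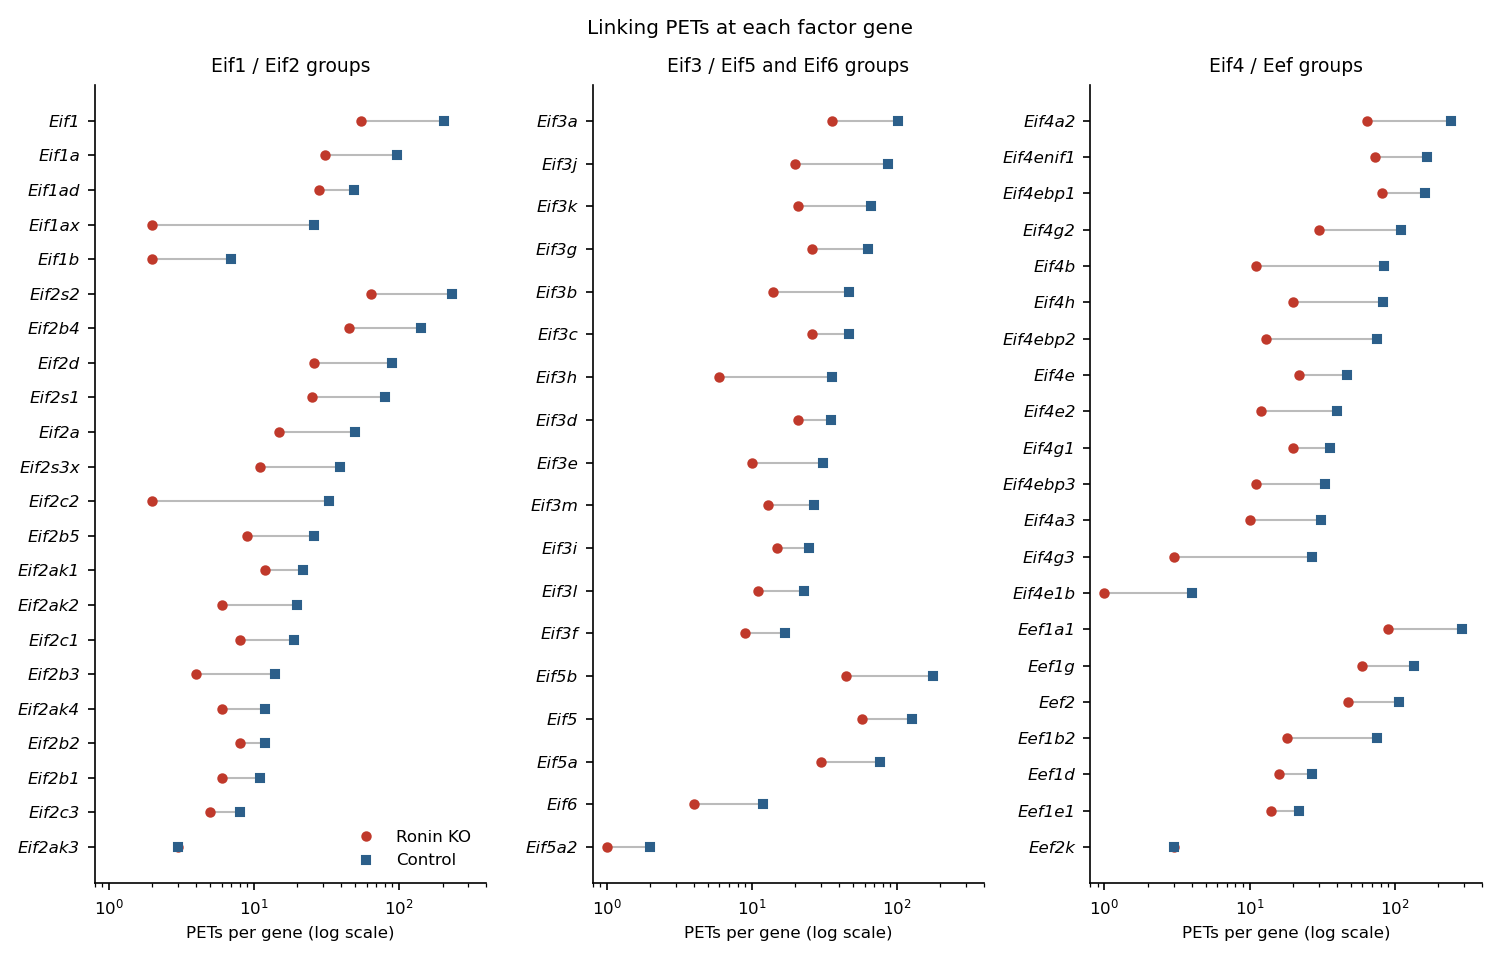
PETs of each factor gene with any PET (horizontal log axis) in Ronin knockout cells (red circles) and control cells (blue squares), ordered by control PETs within each group. Counts were lower in Ronin knockout cells for 59 of the 61 genes, and the symbols coincide for Eif2ak3 and Eef2k.

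Counts per gene were not divided by anchor width, and genes under wide anchors had more PETs. Over the 61 genes, control PETs and the widest control anchor had a Spearman correlation of 0.754, and Ronin knockout and control PETs one of 0.898. The median widest anchor per gene was 23.6 kb in Ronin knockout cells and 23.5 kb in control cells. Over every anchor at factor genes the median width was 12.9 kb in Ronin knockout cells and 10.8 kb in control cells, and over all anchors of the libraries it was 4.74 kb and 3.28 kb. Factor genes are also among the more contacted genes: the median factor gene was at percentile 73.4 of all genes with PETs in control cells, and 14 had at least 91 PETs, the level that 1 in 10 genes with PETs reached. At 44 of the 61 genes an anchor also reached another protein-coding gene, so the PETs of the 2 genes cannot be told apart. The median log2 ratio was -0.31 for these 44 genes and -0.36 for the other 17.

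The Eif1 group had 118 PETs in Ronin knockout cells and 381 in control cells, which is 31% (25% to 38.2%). Eif1, which keeps the scanning complex open until a start codon is met, had 55 PETs in Ronin knockout cells and 203 in control cells. Its anchor held no other gene. Eif1a, which acts with Eif1 in scanning, had 31 PETs in Ronin knockout cells and 97 in control cells. Its X-linked relative Eif1ax had 2 PETs in Ronin knockout cells and 26 in control cells, a scaled log2 ratio of -2.22 (adjusted p = 0.0819, exact binomial test). The drop at Eif1ax was thus large but not called. Eif1ad had 28 PETs in Ronin knockout cells and 49 in control cells, and Eif1b had 2 and 7.

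In the Eif2 group Ronin knockout cells had 250 PETs and control cells 811, which is 30.8% (26.6% to 35.6%). The genes for the 3 subunits of eIF2 all had fewer PETs in Ronin knockout cells. Eif2s1, the alpha subunit that the stress kinases phosphorylate, had 25 PETs in Ronin knockout cells and 80 in control cells. Eif2s2, the beta subunit, had 64 PETs in Ronin knockout cells and 231 in control cells. The X-linked gamma subunit gene Eif2s3x had 11 PETs in Ronin knockout cells and 39 in control cells. These counts are 31.3%, 27.7% and 28.2% of control, near the group's value. Of the exchange factor eIF2B, which reloads eIF2 with GTP, Eif2b4 had 45 PETs in Ronin knockout cells and 141 in control cells, from an anchor of 88.8 kb in the knockout and 87.8 kb in control that also covers 7 other genes. Eif2b2 had the highest scaled ratio of all factor genes with at least 10 PETs, with 8 PETs in Ronin knockout cells and 12 in control cells (log2 ratio 0.63). Eif2b5 had 9 PETs in Ronin knockout cells and 26 in control cells. Eif2d, which can deliver tRNA without eIF2, had 26 PETs in Ronin knockout cells and 90 in control cells, and Eif2a, a separate tRNA-binding protein, had 15 and 50. Among the Argonaute genes, whose products carry small RNAs, Eif2c2 had 2 PETs in Ronin knockout cells and 33 in control cells. Eif2c1 had 8 PETs in Ronin knockout cells and 19 in control cells, and Eif2c3 had 5 and 8. The 5 knockout PETs of Eif2c3 are also counted among the 8 of Eif2c1, as 1 anchor came within 1 kb of both genes. In control cells the matching anchor lay 1049 bp from Eif2c1, outside the limit. At start-site anchors Eif2c1 had 3 PETs in Ronin knockout cells and 19 in control cells (adjusted p = 0.541, exact binomial test). The kinase gene Eif2ak1 had 12 PETs in Ronin knockout cells and 22 in control cells. The other 5 genes of the group with PETs had 3 to 6 PETs in Ronin knockout cells and 3 to 20 in control cells.

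All 13 genes of the Eif3 group, which encode subunits of the scaffold complex eIF3, had PETs in both libraries. They summed to 227 PETs in Ronin knockout cells and 605 in control cells, which is 37.5% (32.1% to 43.8%). Eif3a, the largest subunit, had 36 PETs in Ronin knockout cells and 102 in control cells. Eif3j had 20 PETs in Ronin knockout cells and 87 in control cells, Eif3k had 21 and 66, and Eif3g had 26 and 63. After scaling, 7 of the 13 genes were lower and 6 were higher in Ronin knockout cells, with a median log2 ratio of -0.02. At the low end Eif3h had 6 PETs in Ronin knockout cells and 36 in control cells (log2 ratio -1.27). At the high end Eif3d had 21 PETs in Ronin knockout cells and 35 in control cells, and Eif3i had 15 and 25 (log2 ratios 0.51 and 0.50). Eif3b had 14 PETs in Ronin knockout cells and 47 in control cells, and Eif3e, Eif3f, Eif3l and Eif3m had 9 to 13 PETs in Ronin knockout cells and 17 to 31 in control cells.

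For the Eif4 group, Ronin knockout cells had 371 PETs and control cells 1144, which is 32.4% (28.8% to 36.5%). Without the binding proteins and the transporter, which are not factor subunits, it was 27.2% (23.1% to 32%). Eif4a2 encodes an RNA helicase and had 64 PETs in Ronin knockout cells and 245 in control cells. Eif4b, whose product stimulates that helicase, had 11 PETs in Ronin knockout cells and 85 in control cells, which is 12.9% (6.23% to 24.3%). The related Eif4h had 20 PETs in Ronin knockout cells and 83 in control cells. Of the scaffold genes, Eif4g1 had 20 PETs in Ronin knockout cells and 36 in control cells, Eif4g2 had 30 and 111, and Eif4g3 had 3 and 27. A knockout anchor with 4 PETs lay 1817 bp from Eif4g3, outside the limit. Eif4e, the cap-binding protein, had 22 PETs in Ronin knockout cells and 47 in control cells. Its inhibitors differed among themselves: Eif4ebp1 had 82 PETs in Ronin knockout cells and 163 in control cells, Eif4ebp2 had 13 and 75, and Eif4ebp3 had 11 and 33. Eif4enif1, which carries eIF4E between nucleus and cytoplasm, had 73 PETs in Ronin knockout cells and 167 in control cells. The cap-binding relatives Eif4e2 and Eif4e1b had 12 and 1 PETs in Ronin knockout cells and 40 and 4 in control cells. Eif4a3, a helicase of the exon junction complex, had 10 PETs in Ronin knockout cells and 31 in control cells. Shares of control varied within each kind of gene, with Eif4ebp1 at 50.3% and Eif4ebp2 at 17.3% among the binding proteins, and Eif4g1 at 55.6% and Eif4g2 at 27% among the scaffolds. The knockout anchor of Eif4ebp1 was 84.1 kb wide and also covered Adrb3 and Got1l1, while its control anchor was 39.9 kb wide and did not.

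The Eif5 and Eif6 group had 138 PETs in Ronin knockout cells and 397 in control cells, which is 34.8% (28.4% to 42.3%). Eif5, which triggers GTP hydrolysis by eIF2, had 58 PETs in Ronin knockout cells and 128 in control cells. Eif5a, which helps the ribosome through difficult peptide bonds, had 30 PETs in Ronin knockout cells and 77 in control cells. Eif5b had 45 PETs in Ronin knockout cells and 178 in control cells, with 0 intrachromosomal PETs in Ronin knockout cells and 16 in control cells. Eif6, which keeps the large ribosomal subunit from joining early, had 4 PETs in Ronin knockout cells and 12 in control cells, and Eif5a2, the second eIF5A gene, had 1 and 2.

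The Eef group had 249 PETs in Ronin knockout cells and 665 in control cells, which is 37.4% (32.2% to 43.4%). Eef1a1, which brings aminoacyl-tRNA to the ribosome, had the most PETs of all factor genes, with 90 in Ronin knockout cells and 293 in control cells. Its exchange factor subunits were uneven: Eef1b2 had 18 PETs in Ronin knockout cells and 75 in control cells, Eef1g had 60 and 137, and Eef1d had 16 and 27. Eef2, which moves the ribosome by a codon, had 48 PETs in Ronin knockout cells and 108 in control cells. Eef1e1, a protein of the multi-synthetase complex, had 14 PETs in Ronin knockout cells and 22 in control cells (log2 ratio 0.58). The kinase gene Eef2k had 3 PETs in each library. Of the 7 genes with PETs, 2 were lower and 5 were higher in Ronin knockout cells after scaling. The 5 include Eef2k, with 3 PETs in each library, and Eef2, with a log2 ratio of 0.09. Without its pair with Sfi1, described below, Eef2 had 37 PETs in Ronin knockout cells and 95 in control cells.

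With all genes and pairs counted, no difference between the Eif2, Eif3, Eif4 and Eef groups exceeded its counting error, but some did under other ways of counting. The 6 pairs of groups were compared by the ratio of their knockout to control ratios, leaving out pairs of peaks that touch both groups. The ratio was 0.821 (0.663 to 1.02) for Eif2 over Eif3, 0.952 (0.788 to 1.15) for Eif2 over Eif4 and 0.823 (0.667 to 1.01) for Eif2 over Eef. It was 1.16 (0.951 to 1.41) for Eif3 over Eif4, 1.0 (0.807 to 1.24) for Eif3 over Eef and 0.868 (0.717 to 1.05) for Eif4 over Eef. Every interval includes 1. Without the gene with the most control PETs in each group (Eif2s2 and Eef1a1 here), Eif2 over Eef was 0.750 (0.580 to 0.970). Counting only pairs whose anchor at the gene is at most 30 kb wide changed more. The Eif3 group was then at 46.9% of control and the Eif4 group at 21.2%, a ratio of 2.21 (1.51 to 3.24). Eif2 over Eif3 was 0.644 (0.443 to 0.935) and Eif4 over Eef was 0.592 (0.431 to 0.808), and the other 3 intervals included 1. The limit was set on each library's own anchors, so some anchors were left out in 1 library only. For example, the control anchor of Eif3e (49.0 kb, 31 PETs) was left out, while its knockout anchors stayed. In Ronin knockout cells the start-site anchors of Eif4g1 (34.9 kb, 19 PETs), Eif4ebp3 (33.0 kb, 11 PETs) and Eif3k (51.4 kb, 21 PETs) were left out. Their control start-site anchors of 26.8, 17.3 and 4.82 kb stayed. Pairs of at least 2 PETs, which are few, also gave intervals without 1 for Eif2 over Eif3, at 0.270 (0.0646 to 0.960), and for Eif3 over Eif4, at 2.76 (1.09 to 7.03). Without the genes that are not factor subunits, Eif4 was at 27.2% (23.1% to 32%), Eif2 at 30.7% (26.2% to 35.8%) and Eef at 37.2% (32% to 43.1%). Eif3, with all its genes, was at 37.5% (32.1% to 43.8%). Ratios of ratios were not computed for that count. The 6 pairs of groups were compared under several ways of counting, and no interval is adjusted for the number of comparisons.

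**Figure D3:**
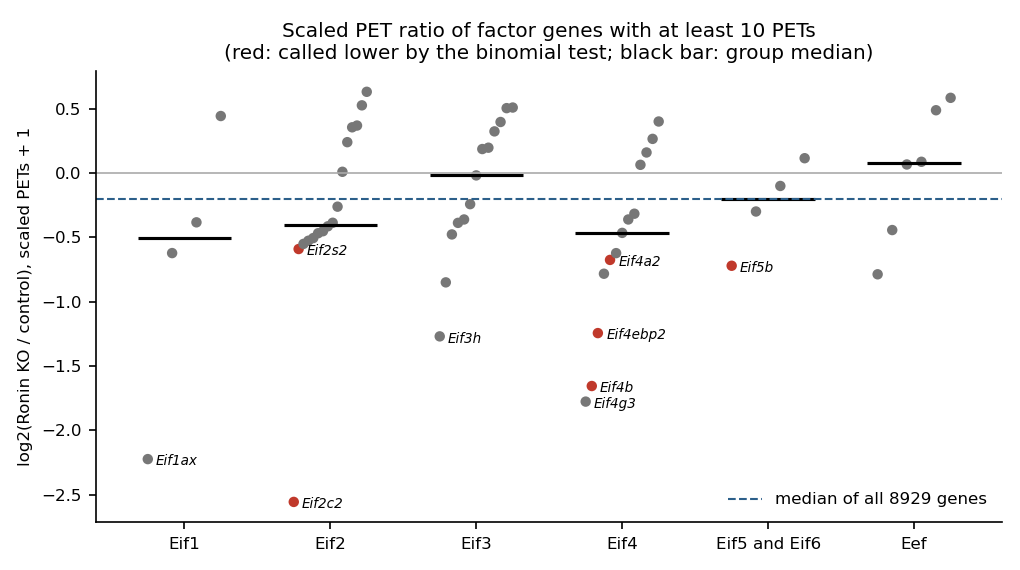
Scaled log2 ratio of Ronin knockout over control PETs (vertical axis, 1 added to each count) for the 56 factor genes with at least 10 PETs, by group, with black bars at group medians and red points for genes called lower by the exact binomial test. The dashed line is the median of all 8929 genes, -0.20; the lowest points are Eif2c2 at -2.56 and Eif1ax at -2.22.

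Each gene was tested on the whole table by a two-sided exact binomial test of its knockout PETs against the knockout share of all linking PETs, with Benjamini-Hochberg adjustment over 8929 genes. The test called 6 of 56 factor genes lower in Ronin knockout cells, which is 10.7%, beside 3.62% of all genes. None was called higher, beside 2.87% of all genes. These shares are not matched for count, which sets how small a difference the test can call. The median number of control PETs was 47 for the factor genes tested and 27 for all genes tested. Over the 56 factor genes, scaled log2 ratios and control PETs had a Spearman correlation of -0.39. By this exact test the 6 genes were Eif4b (adjusted p = 0.00145), Eif4a2 (adjusted p = 0.0128), Eif2c2 (adjusted p = 0.0228), Eif5b (adjusted p = 0.0339), Eif4ebp2 (adjusted p = 0.0360) and Eif2s2 (adjusted p = 0.0499). By size alone, 6 of 56 genes (10.7%) were at least 2-fold lower after scaling, beside 12.4% of all genes, and 0 were at least 2-fold higher, beside 6.19%. These were Eif2c2, Eif1ax, Eif4g3 (log2 ratio -1.78), Eif4b (-1.66), Eif3h and Eif4ebp2 (-1.24). The share that fell by size is thus near that of all genes. The calls depend on the scaling and on which PETs are counted: 1 factor gene, Eif4b, stayed called with the share taken from pairs of peaks (adjusted p = 0.0208, exact binomial test), and Eif4b and Eif2c2 were called without pairs that share a stretch (adjusted p = 0.00456 and 0.0407). Eif2s2 was not called with anchors within 5 kb (adjusted p = 0.0528, exact binomial test), and with no minimum number of PETs neither Eif2s2 nor Eif4ebp2 was (adjusted p = 0.0697 and 0.0504, exact binomial test). With library totals of PETs over 5 kb, 35 factor genes were called lower, as were 4306 of the 8929 genes.

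The anchors at these genes differed in what lay behind the call. Eif4b had 1 anchor in each library, at chr15:101902431-101934145 in Ronin knockout cells and chr15:101902425-101933002 in control cells, which covers the whole gene and reaches Tenc1. The anchor was thus present in both libraries with nearly the same borders, and it had 11 contacts in Ronin knockout cells and 85 in control cells, each of 1 PET. Eif4a2 likewise had 1 anchor in each library, of 39.9 kb in Ronin knockout cells and 41.2 kb in control cells, shared with Rfc4. Eif2s2 had 1 anchor of 64.5 kb in Ronin knockout cells and 64.6 kb in control cells, shared with Raly and the agouti gene. At Eif4ebp2 the start-site anchor had 7 PETs in Ronin knockout cells and 43 in control cells, and the anchor near Nodal had 6 in Ronin knockout cells and 30 in control cells. At its start-site anchor alone Eif4ebp2 was not called (adjusted p = 0.164, exact binomial test).

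At Eif2c2 and Eif5b the difference lay away from the start site. The start-site anchor of Eif2c2 had 2 PETs in Ronin knockout cells and 3 in control cells, and the rest lay mostly at a peak past the end of the gene that holds Chrac1. In Ronin knockout cells that peak, chr15:72918218-72930625 with 6 PETs, ended 1430 bp from Eif2c2 and so fell outside the 1 kb limit, while in control cells it came within the limit with 28 PETs. With a limit of 5 kb Eif2c2 had 8 PETs in Ronin knockout cells and 33 in control cells, and it was not called (adjusted p = 0.563, exact binomial test). Eif5b had 24 PETs in Ronin knockout cells and 42 in control cells at its start-site anchor, which is shared with Txndc9. Its downstream anchor, which extends to Rev1, was 35.8 kb wide with 18 PETs in Ronin knockout cells and 96.5 kb wide with 136 PETs in control cells. Counting only anchors within 1 kb of a start site, Eif5b was not called (adjusted p = 0.614, exact binomial test). Start-site anchors also gave calls that the whole gene did not: Eif3e had 1 PET in Ronin knockout cells and 31 in control cells there (adjusted p = 0.00693, exact binomial test), and Eif4enif1 had 34 and 166 (adjusted p = 0.00194, exact binomial test). Eif1ax with 1 PET in Ronin knockout cells and 26 in control cells and Eif3j with 9 and 66 were called lower as well (adjusted p = 0.0231 and 0.0111, exact binomial test). Eif3k was called higher there, with 21 PETs in Ronin knockout cells and 8 in control cells (adjusted p = 0.000102, exact binomial test). Peak borders differed at these genes. The start site of Eif3e lay in a control anchor of 49.0 kb and a knockout anchor of 3.63 kb. At Eif4enif1 a control anchor with 81 PETs came within the start-site limit, while a knockout anchor with 37 PETs did not. Over the whole gene Eif3e and Eif4enif1 were not called (adjusted p = 0.908 and 0.981, exact binomial test). Eif3h had 1 anchor in Ronin knockout cells, of 18.8 kb at the start site, and 8 anchors along the gene in control cells, of which the start-site anchor was 36.6 kb wide with 12 PETs.

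**Figure D4:**
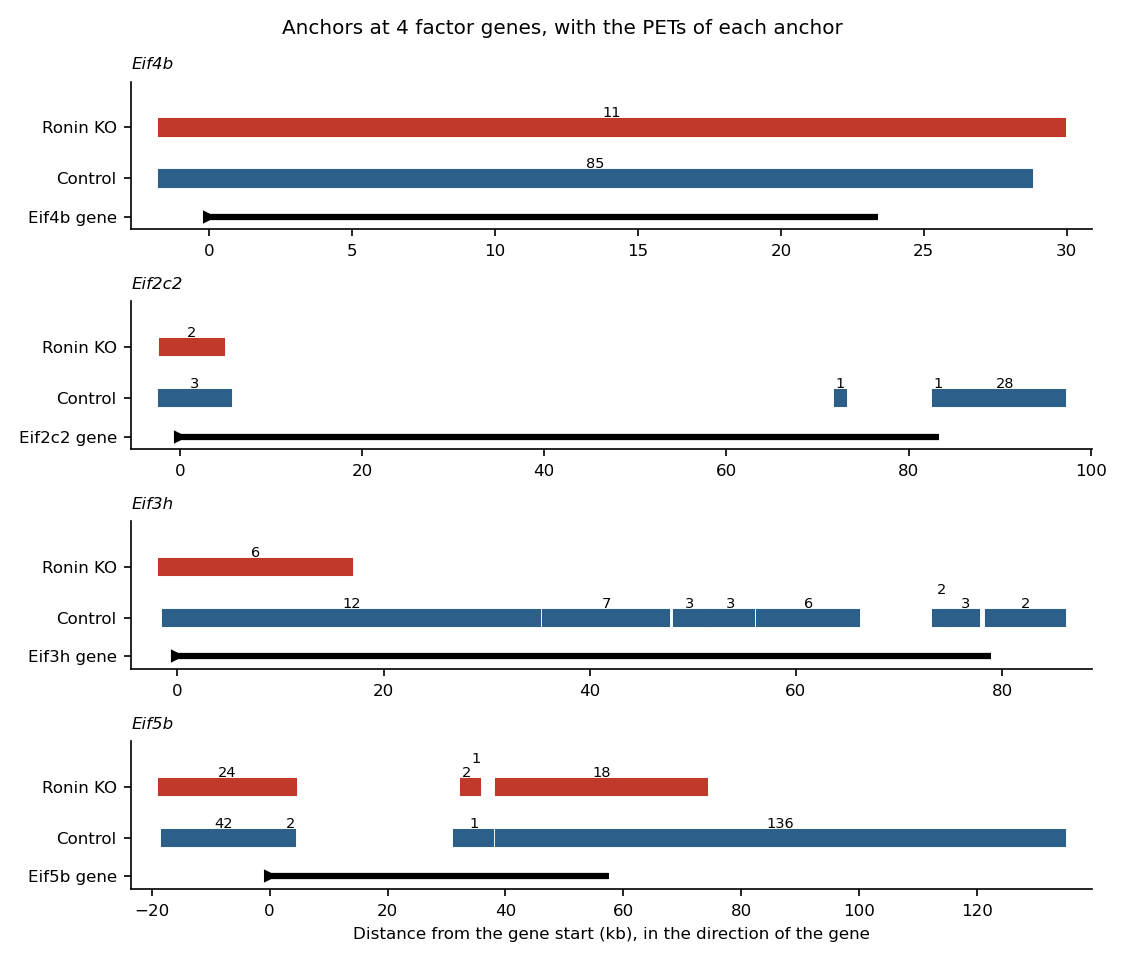
Anchors (bars) at Eif4b, Eif2c2, Eif3h and Eif5b by distance from the gene start in kb, with Ronin knockout cells in red above control cells in blue, the PETs of each anchor printed over it and the gene as a black line. Eif4b kept the same anchor with 11 PETs in Ronin knockout cells and 85 in control cells, while the control-rich anchors of Eif2c2 and Eif5b lie away from the start site.

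Most contacts of factor genes were single PETs between chromosomes that reached another gene. Pairs of 1 PET made up 98.0% of their pairs in Ronin knockout cells and 97.8% in control cells. Intrachromosomal pairs were 8.89% (7.39% to 10.6%) of pairs in Ronin knockout cells and 7.46% (6.65% to 8.34%) in control cells, below the 11.4% and 9.61% of all pairs. The partner anchor lay within 1 kb of a protein-coding gene for 92.3% of pairs in Ronin knockout cells and 90% in control cells, beside 82.7% and 81.2% over all pairs. Within chromosomes a larger share of the contacts was close in Ronin knockout cells: 42.6% (33.4% to 52.2%) of 115 pairs spanned under 1 Mb in Ronin knockout cells, against 24.7% (19.8% to 30.1%) of 288 pairs in control cells. Over all intrachromosomal pairs these shares were 42.7% and 36.7%. Median gaps were 5.98 Mb in Ronin knockout cells and 20.3 Mb in control cells, and over all intrachromosomal pairs they were 4.55 Mb and 10.3 Mb.

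Few control pairs were found again in Ronin knockout cells. A pair counted as found again where 1 knockout pair overlapped both of its anchors by at least 1 bp, which held for 66 of 3859 pairs at factor genes (1.71%, 1.33% to 2.17%) and for 1.36% of all control pairs. It was 48 of 3773 pairs with 1 PET (1.27%) and 18 of 86 pairs with at least 2 PETs (20.9%, 12.9% to 31%). The share of all control pairs with at least 2 PETs was not computed, so 20.9% has no background beside it. The 18 include the pairs of Eef2 and Sfi1, Eif3l and Tpi1, and Eif4e and Pdzd2, whose identical runs are given below. They also include pairs with peaks at Gm10722 and Gm10800. By group, 1.63% of pairs were found again for Eif2, 1.69% for Eif3, 1.54% for Eif4 and 2.37% for Eef, with overlapping intervals.

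**Figure D5:**
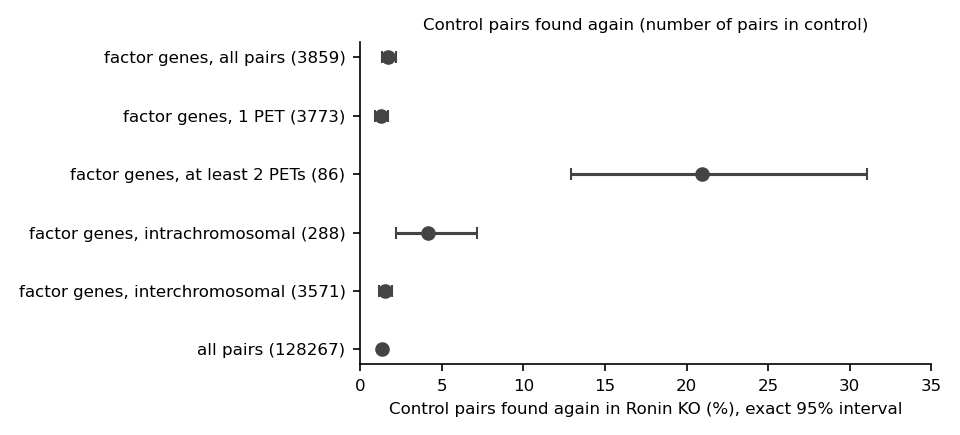
Share of control pairs found again in Ronin knockout cells (horizontal axis, percent) with exact 95% intervals, by the kind of pair and with the number of control pairs in brackets. Factor gene pairs of at least 2 PETs stand at 20.9%, and those of 1 PET at 1.27%. The share of all control pairs with at least 2 PETs was not computed.

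Contacts between 2 factor genes were few in number. Ronin knockout cells had 20 pairs with 21 PETs in which both anchors lay at a factor gene, of which 4 joined anchors of 1 gene, and control cells had 30 pairs with 32 PETs, of which 6 did. These were 1.55% (0.947% to 2.38%) of factor gene pairs in Ronin knockout cells and 0.777% (0.525% to 1.11%) in control cells. Factor genes were themselves in only 1294 of all 44328 pairs in Ronin knockout cells and 3859 of 128267 in control cells. Whether these shares differ from those of as many other genes was not tested. No pair of genes was in contact in both libraries. With 23 pairs of 2 factor genes in control cells, and 1.36% of all control pairs found again, this is no result about factor genes. In Ronin knockout cells Eif4ebp1 and Eif5a were joined by 2 PETs, Eif2s2 touched Eef1a1, Eef2, Eif1a and Eif4ebp1, and Eif3c touched Eif3l and Eif1ad. Control cells had 2 PETs between Eef1b2 and Eif5b, whose anchors share a stretch, and single PETs between Eif3i and Eif3m, Eif2b5 and Eif4g1, Eif1 and Eif1ax, and Eef1a1 and Eif5.

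At factor genes 4 pairs had at least 3 PETs in each library, and 3 of these joined anchors with a long identical run. Eef2 and a peak inside Sfi1 on another chromosome were joined by 11 PETs in Ronin knockout cells and 13 in control cells. That peak, 2.54 kb wide in control, held 890 of the 3098 exonic bases of Eef2 (28.7%) in identical words of 25 bases, and 2 of its 2779 intronic bases. The longest identical run was 79 bp, in capitals below, from an Eef2 exon at chr10:80640898-80640976 and from chr11:3050565-3050643, where it is on the opposite strand and shown in the direction of Eef2.
Eef2: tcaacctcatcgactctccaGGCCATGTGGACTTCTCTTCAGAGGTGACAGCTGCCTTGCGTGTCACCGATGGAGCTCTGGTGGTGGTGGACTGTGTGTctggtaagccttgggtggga
Sfi1 peak: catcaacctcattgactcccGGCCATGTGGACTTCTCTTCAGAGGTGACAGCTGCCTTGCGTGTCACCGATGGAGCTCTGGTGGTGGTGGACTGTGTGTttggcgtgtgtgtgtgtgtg
Without this pair Eef2 had 37 PETs in Ronin knockout cells and 95 in control cells. Eif3l and a peak at Tpi1, Usp5 and Spsb2 were joined by 5 PETs in Ronin knockout cells and 9 in control cells, with 116 identical bases at chr15:78915438-78915553 and chr6:124752905-124753020. Eif4e and a peak at Pdzd2 were joined by 3 PETs in Ronin knockout cells and 7 in control cells, with 82 identical bases, in capitals, at chr3:138224441-138224522 and chr15:12286766-12286847.
Eif4e: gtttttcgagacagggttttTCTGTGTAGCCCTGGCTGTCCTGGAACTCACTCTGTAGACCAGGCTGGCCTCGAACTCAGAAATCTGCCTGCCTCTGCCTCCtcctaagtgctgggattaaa
Pdzd2 peak: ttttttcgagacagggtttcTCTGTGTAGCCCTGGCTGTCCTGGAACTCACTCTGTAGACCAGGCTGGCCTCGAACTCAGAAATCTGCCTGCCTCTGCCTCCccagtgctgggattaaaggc
Of these letters, the run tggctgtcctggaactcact was also in the identical stretches of the Eif2b4 and Gata4 pair and the Eif2s2 and Rad51c pair. It was present in 33.6% of all anchors in Ronin knockout cells and 26.2% in control cells, and in 61.2% and 57.4% of the wider anchors at factor genes. Eif4enif1 and a peak at Gm10722 were joined by 4 PETs in Ronin knockout cells and 9 in control cells, with no identical run longer than 14 bases. Whether shared sequence placed any of these PETs was not tested.

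Other genes of translation also had fewer contacts in Ronin knockout cells, to a degree that differed between lists. The 53 listed genes, for termination, mitochondrial factors, poly(A) binding, mTOR signalling, the eIF2 stress response and factor modification, had 1096 PETs in Ronin knockout cells and 3051 in control cells, which is 35.9% (33.5% to 38.5%). By list, the knockout share was lowest for poly(A) binding and cap regulation at 29.9% (25.8% to 34.6%) and highest for modification of Eif5a and Eef2 at 50.5% (39% to 65.2%). The difference between these genes and the factor genes was not tested. After scaling 29 were lower and 24 higher in Ronin knockout cells, with a median log2 ratio of -0.09, beside -0.24 for all genes with PETs. Of 45 with at least 10 PETs the binomial test called 1 lower and 0 higher, beside 3.62% and 2.87% of all genes. The 4 with the most control PETs were Paip2, a repressor of poly(A)-binding protein, Etf1, the release factor, the kinase gene Mtor and the stress transcription factor gene Atf4. Paip2, the gene called, had 70 PETs in Ronin knockout cells and 297 in control cells (adjusted p = 0.000318, exact binomial test). Etf1 had 93 PETs in Ronin knockout cells and 284 in control cells, Mtor had 79 and 207, and Atf4 had 50 and 161.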

How the data were processed

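Contacts came from 2 libraries, 1 per condition. Before deposit the authors removed linkers with cutadapt, aligned each mate to mm9 using Bowtie 1.1.1, collapsed duplicate PETs, discarded intrachromosomal PETs under 4 kb and called peaks using MACS 1.4.2. The deposited files give a raw count of PETs for each pair of peaks, a signed distance (a score) and the authors' hypergeometric p-value with its adjusted form, which served 1 alternative only. Genes (GENCODE vM1, NCBIM37) were assigned to anchors within 1 kb, each pair being counted once per gene or group. Ratios have exact conditional binomial intervals, shares Clopper-Pearson intervals, and ratios of ratios exact conditional intervals. For genes with at least 10 PETs, p-values of the exact binomial test were adjusted by Benjamini-Hochberg and called at 0.05. Such tests compare libraries, not conditions. Scripted searches for identical runs were checked on simulated data.

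The genes, groups and lists were chosen with earlier results of these data known. Named were, in each group, the 4 genes with the most control PETs, the 5 lowest and the 5 highest scaled ratios, the genes called and the genes in contacts with each other. Remaining genes of small groups, anchor details and the sequences of the strongest pairs were chosen after their values were seen. Library totals over 5 kb were the study's own. Alternatives chosen after seeing the data took pairs of peaks as totals, left out pairs with a shared run of at least 100 bp, or tested anchors within 5 kb or at start sites. Python 3.11.15, numpy 2.4.6, pandas 2.3.3, scipy 1.17.1, pysam 0.24.0 and matplotlib 3.10.9 were used.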

Additional observations from a re-analysis of the deposited data

How the results depend on the processing

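No paired analysis was possible because each condition is 1 merged library. The percent of control of all factor genes moved beyond its interval with intrachromosomal pairs (38.6%), those intrachromosomal pairs whose deposited adjusted p is below 0.05 (42.3%) and pairs of at least 3 PETs (51.7%). With the pairs below 0.05 the Eif2, Eif4 and Eef groups were at 39.7%, 41.8% and 48.6%, and with all intrachromosomal pairs Eif4 and Eef were at 39.5% and 45%. At 2 or more PETs the Eif2, Eif3, Eif4 and Eef groups were at 20.8%, 78.9%, 28.4% and 46%, and at 3 or more at 50%, 100%, 25.9% and 68.8%. Without anchors over 30 kb Eif3 was at 46.9% and Eif4 at 21.2%, and without the binding proteins and the transporter Eif4 was at 27.2%. The 30 kb limit was set on each library's own anchors, so it left out some anchors in 1 library only.

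The ratio of ratios at 2 or more PETs was 0.270 for Eif2 over Eif3, 0.737 for Eif2 over Eif4, 0.456 for Eif2 over Eef, 2.76 for Eif3 over Eif4, 1.71 for Eif3 over Eef and 0.618 for Eif4 over Eef. Without anchors over 30 kb it was 0.644 for Eif2 over Eif3, 1.43 for Eif2 over Eif4, 0.845 for Eif2 over Eef, 2.21 for Eif3 over Eif4, 1.31 for Eif3 over Eef and 0.592 for Eif4 over Eef. The cause was not tested.

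With library totals of PETs over 5 kb, 59 factor genes had fewer PETs in Ronin knockout cells, with a median log2 ratio of -1.16, and with no scaling 59 did, with a median of -1.43. At 2 or more PETs 17 did, with a median of -0.61. The binomial test called 4306 genes lower and 131 higher with the totals over 5 kb (35 factor genes lower), 5611 and 100 with an equal share (41 factor genes lower), and 18 and 34 with intrachromosomal pairs (0 factor genes lower). With pairs of peaks as totals it called 118 lower and 400 higher (1 factor gene lower), and without pairs that share a stretch 224 and 249 (2 factor genes lower). At start-site anchors it called 266 lower and 258 higher (7 factor genes lower and 1 higher), and within 5 kb of the gene 334 and 247 (4 factor genes lower and 1 higher). Directions changed for Eif2 over Eif4 without wide anchors (1.43) and for Eif3 over Eef without the gene with the most control PETs in each group (0.888), with intrachromosomal pairs (0.923) and in pairs of peaks (0.998), all with intervals that include 1. Single PETs make up nearly all pairs, so low counts limit every gene with few PETs.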

Other observations

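The border of a peak decided several values. With anchors up to 5 kb from the gene, Eif5a2 had 11 PETs in Ronin knockout cells and 2 in control cells (adjusted p = 0.00216, exact binomial test), because a knockout anchor with 10 PETs lay 4976 bp from the gene. Within 1 kb it had 1 PET in Ronin knockout cells and 2 in control cells. At Eif3k the start site lay in an anchor of 51.4 kb with 21 PETs in Ronin knockout cells and in an anchor of 4.82 kb with 8 PETs in control cells, where a second anchor of 44.5 kb with 58 PETs covered the rest of the gene. Counted over the whole gene Eif3k was lower in Ronin knockout cells (21 PETs, against 66 in control cells), and at start-site anchors it was called higher (adjusted p = 0.000102, exact binomial test). Eif4ebp1 had 1 anchor of 84.1 kb in Ronin knockout cells that also covered Adrb3 and Got1l1. In control cells these 2 genes had an anchor of their own beside the Eif4ebp1 anchor of 39.9 kb, and the pair between the 2 anchors had 4 PETs. In Ronin knockout cells both sides were 1 peak, so no such pair could be counted.

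A peak at Gm10800 was the most linked anchor of both libraries, with 767 pairs in Ronin knockout cells and 1776 in control cells. It contacted 12 factor genes in Ronin knockout cells and 18 in control cells. In control cells a histone gene anchor with 670 pairs and the anchor at Mt1 and Mt2 with 431 pairs contacted 10 factor genes each. For scale, factor genes were in 1294 of all 44328 pairs in Ronin knockout cells and 3859 of 128267 in control cells. Whether these anchors contacted factor genes more often than other genes was not tested.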
